A study of Mus musculus with 56 samples.

Results

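The comparison described here set microglia of young Trem2 knockout mice against microglia of young wild-type mice, across every gene with enough counts to test. It used 14 of the 56 libraries of the series, chosen by the genotype, age and cell type in the sample labels. The knockout (KO) group was 7 mice labelled TREM2 -/-, and the wild-type (WT) group was 7 mice labelled TREM2 +/+. All 14 were females aged 2 months, all were perfused with buffered saline, and each gave 1 library of viable Cd11b+ cells sorted from the whole brain. No disease model or drug was involved. The labels do not say which segment of Trem2 is deleted or which strain was used, and Cd11b also marks other myeloid cells. The series also holds 14 microglia libraries from mice of 16 to 18 months and 28 astrocyte libraries (ACSA-2+ cells) from the same 28 animals, which serve here as points of comparison only. RNA was read as tags at the 3′ ends of transcripts. Levels are compared here between libraries, and how far they can be compared between genes was not tested.

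TREM2 is a surface receptor of microglia and related macrophages that binds lipids, lipoproteins and other anionic ligands. It has no signalling tail of its own and pairs with the adaptor DAP12, encoded by Tyrobp, whose ITAM motif recruits the kinase SYK and, further on, PLCγ2. In mouse models of amyloid, myelin injury and ageing, TREM2 is known for carrying microglia from a homeostatic state through a first into a second stage of a disease-associated programme, in which lipid, lysosomal and phagocytic genes are induced. The labels and the title of the series place the young mice as the early time point of a study of lipid metabolism during ageing.

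Sequencing was shallow. Total counts per library ran from 346698 to 1034874 (median 668302) in WT and from 491158 to 859301 (median 606481) in KO. The RNA integrity number (RIN) was 8.8 to 10 in WT (mean 9.64) and 9.7 to 10 in KO (mean 9.96), so the lowest values were all in WT. Mitochondrial ribosomal RNA took a median of 7.49% of counts in WT and 7.44% in KO. The sort held microglia by its markers. Levels are given as CPM, counts scaled to a common library total. Summed over the 7 measured genes P2ry12, Tmem119, Cx3cr1, Siglech, Sall1, Fcrls and Csf1r, the level was 20790 to 23700 CPM in WT and 20370 to 24510 in KO, and 0 of the 7 genes passed the test in either direction. Markers of other cells were present in both groups. Markers of border-associated macrophages summed to 797, 1279 and 1482 CPM (lowest, median and highest) in WT and to 1019, 1633 and 1977 in KO, and those of neutrophils to 275, 494 and 624.5 in WT and 456, 514 and 1125 in KO. Without KO animal 6 the highest neutrophil sum in KO was 723.1 CPM. Astrocyte markers summed to 462, 853 and 1497 CPM in WT and 554, 792 and 1591 CPM in KO, and oligodendrocyte markers to 391, 586 and 758 CPM in WT and 378, 617 and 804.5 CPM in KO. B-cell markers summed to 228, 315 and 406 CPM in WT and 218, 304 and 382 CPM in KO, with Cd79a at no count in any library. T-cell and NK-cell markers summed to 12.6, 24.3 and 47.4 CPM in WT and 29.0, 40.6 and 47.6 CPM in KO, with Cd3d, Cd3g and Cd8a at no count in any library. Monocyte markers summed to 119, 125.7 and 165 CPM in WT and 122.5, 152 and 170.5 CPM in KO. The library of KO animal 6 stood apart in several of these sums, with the highest choroid plexus and ependymal sum (1216 CPM against at most 180 in the other KO libraries) and the highest neutrophil sum. For Trem2, Cd34, Treml2, Dleu2, the neutrophil and endothelial sums and the number of calls, values are given with and without it.

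Of 7512 genes tested, 4 differed between KO and WT, all of them lower in KO, which is 0.0532% of the genes. They were Trem2 itself, Clec7a, Cd34 and Hbb-bs. No gene was called higher (0.00%). The calls are at a Benjamini-Hochberg adjusted p under 0.05 in edgeR's quasi-likelihood test, with the spread estimated from all 28 microglia libraries. At an unadjusted p under 0.05 there were 510 genes (6.79%), of which 217 were higher (2.89% of all) and 293 lower (3.90%), and the median log2 fold change over all genes was -0.01. Leaving out KO animal 6 gave 5 calls in place of 4, by adding Dleu2 (log2 fold change 0.85, higher). The number of calls was sensitive to the filter: with no filter on low counts, 63 genes passed, 40 of them higher in KO, and 58 of these 63 were also in the filtered test. Genes described below that were called only there, or there and in few other settings, were Lpl, Csf1, St8sia6, Hmox1, Dusp2, Ccl4, Il1b and Hspa1a (lower) and Dleu2, Oma1, Ctso, Plac8, Psap, Pf4, Ccl7, Ccl12 and Ndufb3 (higher).

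Trem2 (chromosome 17, 48346401 to 48354147, plus strand, GRCm38) was the gene with the smallest p. Its level was 296, 430 and 672 CPM (lowest, median and highest) in the 7 WT libraries and 78.4, 89.4 and 162 CPM in the 7 KO libraries. The groups did not overlap, and the highest KO value was that of animal 6, the next being 100.2 CPM. The log2 fold change of KO against WT was -2.23 ± 0.18 (SE), with a 95% interval from -2.60 to -1.86 and an adjusted p of 1.1e-10 by edgeR. Without animal 6 it was -2.38. Tags counted in KO microglia show only that transcript 3′ ends were still made from the locus. With a 3′ assay and an allele that is not described, they do not tell whether any of that RNA could encode the receptor.

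Neighbours of Trem2 were examined because a targeted allele can alter nearby genes. Within 1 Mb of the gene, 7 others were tested and 0 passed the test. Treml2, the TREM-like receptor gene upstream of Trem2, measured 36.3, 47.4 and 78.8 CPM in WT and 17.6, 30.3 and 60.9 CPM in KO. The groups overlapped through KO animal 6 alone, the next KO library being at 34.5 CPM. Its log2 fold change was -0.62 ± 0.22 with an unadjusted p of 0.0074 and an adjusted p of 0.71, and was -0.81 without that animal (adjusted p = 0.31 by edgeR). Nfya and Oard1, on the downstream side, had log2 fold changes of 0.12 ± 0.24 and 0.42 ± 0.31. Treml1, the next gene downstream and encoding a platelet receptor, was below the filter, at a mean of 5.44 CPM in WT and 4.32 in KO. Trem1, Trem3 and Treml4 were also below it, with 14, 3 and 4 counts in all over the 14 libraries. So was RP23-394K2.4, the gene between Treml2 and Trem2, with 55 counts and means of 7.97 CPM in WT and 3.51 CPM in KO.

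Clec7a encodes dectin-1, a receptor for β-glucans that signals through SYK and is among the most widely used markers of disease-associated microglia. WT libraries measured 52.8, 55.4 and 64.6 CPM, a narrow band, and KO libraries 9.67, 26.1 and 28.4 CPM. The groups did not overlap, and 1 KO library lay well below the other 6. Clec7a fell by 1.26 ± 0.17 on the log2 scale (95% interval -1.61 to -0.91, adjusted p = 4.0e-05 by edgeR). The call was made in each of the 14 fits that left out 1 young library.

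Cd34 encodes a sialomucin best known from blood stem cells and endothelium. It measured 157, 190 and 230 CPM in WT and 103, 120 and 162 CPM in KO. The groups overlapped through KO animal 6 alone, whose 162.4 CPM compares with 125.9 for the next KO library. The log2 fold change was -0.64 ± 0.12 (adjusted p = 0.0154 by edgeR) and -0.71 without that animal. The call was kept in 10 of 14 fits that left out 1 young library, and the highest adjusted p among the 14 was 0.0797. It was lost without WT animal 21 or KO animal 14, 18 or 22, and in fits to only the 14 young or to all 56 libraries. Endothelial markers, of which Cd34 is not a listed member, summed to 41.9, 74.5 and 87.6 CPM in WT and to 48.7, 69.4 and 146 CPM in KO, and these ranges overlapped widely. The highest of these KO sums was also that of animal 6, the next KO library being at 94.7 CPM. In bulk libraries such as these, fewer cells that express a gene and less RNA per cell cannot be told apart.

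Hbb-bs encodes a β-globin of red blood cells and shares sequence with its neighbour Hbb-bt, so its tags are uncertain between the copies. It was at 0, 34.6 and 120 CPM in WT and at 0, 1.93 and 14.8 CPM in KO, with overlap. The log2 fold change was -3.58 ± 0.71 (adjusted p = 0.0247 by edgeR). The red-cell list of 5 genes includes Hbb-bs, the only 1 of them with enough counts to test. The list summed to 2.92, 51.0 and 178 CPM in WT and 0, 1.93 and 23 CPM in KO. Of the 7 WT libraries, 5 were above the highest KO sum. The Hbb-bs call was made in 6 of the 14 fits that left out 1 library (adjusted p up to 0.177) and was absent with DESeq2 and with limma-voom. It failed without KO animal 2, 14, 18, 22 or 26 and without WT animal 9, 13 or 21. How far residual blood in the sort takes part in this difference was not tested.

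**Figure D1:**
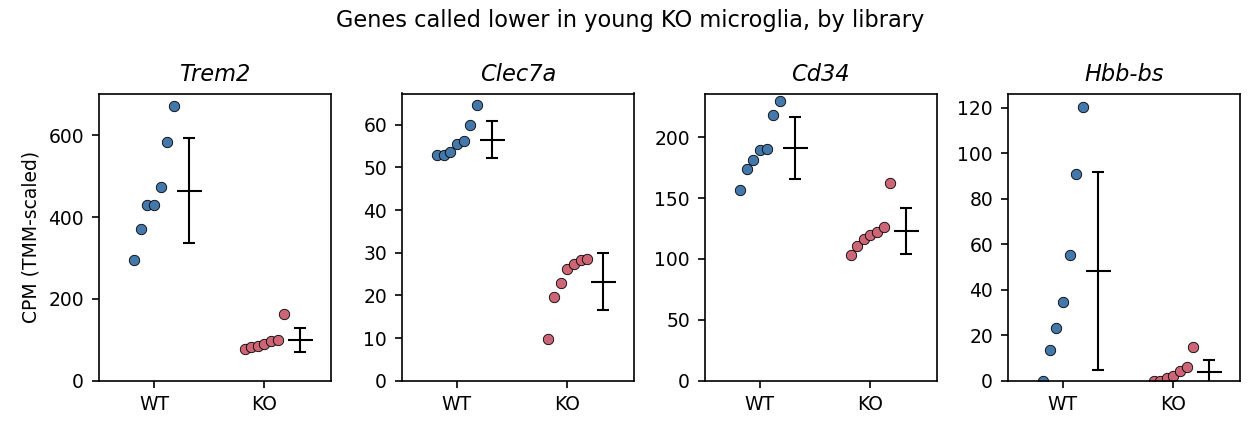
TMM-scaled CPM (vertical axis, linear from 0) of the 4 genes called lower in young KO microglia, with 1 point per library, 7 WT and 7 KO, and bars for mean ± SD. Trem2 and Clec7a separate completely, Cd34 overlaps only through the highest KO library, and Hbb-bs spreads from 0 to 120 in WT.

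Sequence upstream of the transcription start is shown for Clec7a and Cd34, the microglial genes called, and for Cst7 and Slamf8, which were lower at an unadjusted p under 0.05 at both ages and were picked after the motif matches were seen, as examples that hold one. Each run is the 250 bases before the RefSeq start of the gene, 5′ to 3′ on the strand of the gene, in build GRCm38.p6. Capitals mark matches, on either strand, to 3 short motifs that were searched: the ETS core GGAAGT bound by the myeloid factor PU.1 and its relatives, the AP-1 site TGANTCA and the E-box CACGTG. None of these motifs overlaps another in the runs printed. The windows are chr6:129472780-129473029 (minus strand) for Clec7a, chr1:194938571-194938820 (plus) for Cd34, chr2:150570165-150570414 (plus) for Cst7 and chr1:172590569-172590818 (minus) for Slamf8.
Clec7a: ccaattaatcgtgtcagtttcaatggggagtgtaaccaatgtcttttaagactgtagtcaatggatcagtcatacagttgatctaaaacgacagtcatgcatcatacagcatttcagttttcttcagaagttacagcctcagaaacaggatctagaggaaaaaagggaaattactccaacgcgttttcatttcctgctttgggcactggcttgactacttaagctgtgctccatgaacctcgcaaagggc
Cd34: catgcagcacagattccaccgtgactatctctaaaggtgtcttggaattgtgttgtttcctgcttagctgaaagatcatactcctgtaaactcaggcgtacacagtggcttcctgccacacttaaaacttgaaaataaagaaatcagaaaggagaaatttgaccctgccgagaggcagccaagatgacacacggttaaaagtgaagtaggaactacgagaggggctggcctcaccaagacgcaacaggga
Cst7: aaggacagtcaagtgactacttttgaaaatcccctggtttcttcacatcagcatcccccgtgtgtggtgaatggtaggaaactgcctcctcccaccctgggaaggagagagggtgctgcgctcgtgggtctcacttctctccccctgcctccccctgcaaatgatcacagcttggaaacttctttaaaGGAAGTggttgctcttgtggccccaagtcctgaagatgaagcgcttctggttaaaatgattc
Slamf8: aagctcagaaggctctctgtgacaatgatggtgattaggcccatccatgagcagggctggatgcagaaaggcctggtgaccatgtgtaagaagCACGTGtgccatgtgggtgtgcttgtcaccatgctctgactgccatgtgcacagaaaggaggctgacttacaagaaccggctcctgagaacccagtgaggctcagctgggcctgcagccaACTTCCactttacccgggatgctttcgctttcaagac
The Clec7a and Cd34 windows held no match, which says only that these letters are not in these bases. Cst7 held the ETS core, 62 bases before the start. Slamf8 held the ETS core 37 bases before it, on the other strand, and an E-box at 157. Among 27 genes with a promoter in the RefSeq table, out of the 31 other than Trem2 that were lower at an unadjusted p under 0.05 at both ages, 11 (40.7%) held the ETS core, 0 the AP-1 site and 1 (3.7%) the E-box. The shares were 25.5%, 4.05% and 9.43% over 5654 tested genes with a promoter, and 20%, 6.87% and 6.05% over all 27025 promoters. These are matches of letters, counted after the genes had been chosen by their values, and no test was made of them.

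The receptor's own signalling partners were measured well enough to bound their change. Tyrobp, the adaptor, was at 1107, 1579 and 2071 CPM in WT and 1128, 1474 and 1884 CPM in KO, with a log2 fold change of -0.00 ± 0.16 and a 95% interval from -0.33 to 0.33. Syk was at 48.6, 79.0 and 83.8 CPM in WT and 40.4, 71.8 and 110 CPM in KO (0.01 ± 0.19, interval -0.37 to 0.39). Plcg2, which encodes PLCγ2, had a log2 fold change of -0.20 ± 0.15 (interval -0.52 to 0.11). The signs of Tyrobp and Syk turned under several other settings, as values this close to 0 do. Of 26 genes listed for ITAM signalling, 23 were tested and 0 passed, with a median of -0.00. Lat2, an adaptor downstream of ITAM receptors, and Btk, a kinase of the same route, had the smallest p, with log2 fold changes of -0.42 ± 0.18 and -0.35 ± 0.16 and unadjusted p of 0.025 and 0.035.

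Disease-associated microglia are described in 2 stages. The list for the later, TREM2-dependent stage held 23 genes, of which 20 were tested. Lilrb4a, Gpnmb and Ch25h were below the filter. Clec7a was the only member past the adjusted threshold. The log2 fold change was negative for 20 of 20 members, against 51.1% of all genes tested, though Ctsl, nearest to 0, turned positive with no filter on low counts. The median was -0.34, and 9 of the 20 members were lower at an unadjusted p under 0.05, against 3.90% of all genes tested. In old mice the median was -0.41 and 19 of the 20 were negative. The filter was set on young and old libraries together, and the list was drawn up with earlier results of these libraries known, so these counts are a description and not separate support for a direction.

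Several members of this list were at the edge of detection in the young brain. Cst7, which encodes the cathepsin inhibitor cystatin F, was at 4.56, 7.18 and 12.6 CPM in WT and 0, 2.35 and 8.12 CPM in KO (log2 fold change -1.41 ± 0.56, unadjusted p = 0.017). Itgax, the CD11c gene, was at 1.91, 7.60 and 11.7 CPM in WT and 0, 3.27 and 9.67 CPM in KO (-0.78 ± 0.48, unadjusted p = 0.11). Spp1, the osteopontin gene, was at 9.53, 17.4 and 47.9 CPM in WT and 3.27, 6.57 and 22.3 CPM in KO (-0.96 ± 0.40, unadjusted p = 0.022). In each of these the KO median was below the WT median, and the groups overlapped.

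Other members of the list were at higher levels. Csf1, the ligand of the microglial survival receptor CSF1R, was at 27.8, 41.9 and 57.4 CPM in WT and 9.50, 21.4 and 34.1 CPM in KO (-0.91 ± 0.28, unadjusted p = 0.0021). Lpl, lipoprotein lipase, was at 49.6, 85.8 and 132 CPM in WT and 41.1, 50.8 and 68.6 CPM in KO (-0.73 ± 0.20, unadjusted p = 7.9e-04). For both, the upper WT libraries exceeded every KO library and the lower ones did not. Cd63, a tetraspanin of late endosomes, was at 534, 846 and 902 CPM in WT and 469, 514 and 749 CPM in KO (-0.44 ± 0.17, unadjusted p = 0.013). The TAM receptor gene Axl (-0.36 ± 0.24), the surface glycoprotein gene Cd52 (-0.27 ± 0.16) and the tetraspanin gene Cd9 (-0.10 ± 0.15) had unadjusted p of 0.10 or more. None of these genes passed the adjusted threshold.

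The earlier stage, which is reached without TREM2, held 9 genes. All were tested and 0 passed. The median was -0.09 and 6 of 9 were negative. Apoe, the main lipid carrier of the brain and a TREM2 ligand, was at 730, 938 and 1443 CPM in WT and 716, 885 and 1261 CPM in KO, with a log2 fold change of -0.13 ± 0.14 (95% interval -0.41 to 0.15). The groups covered nearly the same range. The cathepsin D gene Ctsd had -0.33 ± 0.12 (unadjusted p = 0.0096) and Timp2, a metalloproteinase inhibitor, -0.28 ± 0.12 (unadjusted p = 0.024).

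**Figure D2:**
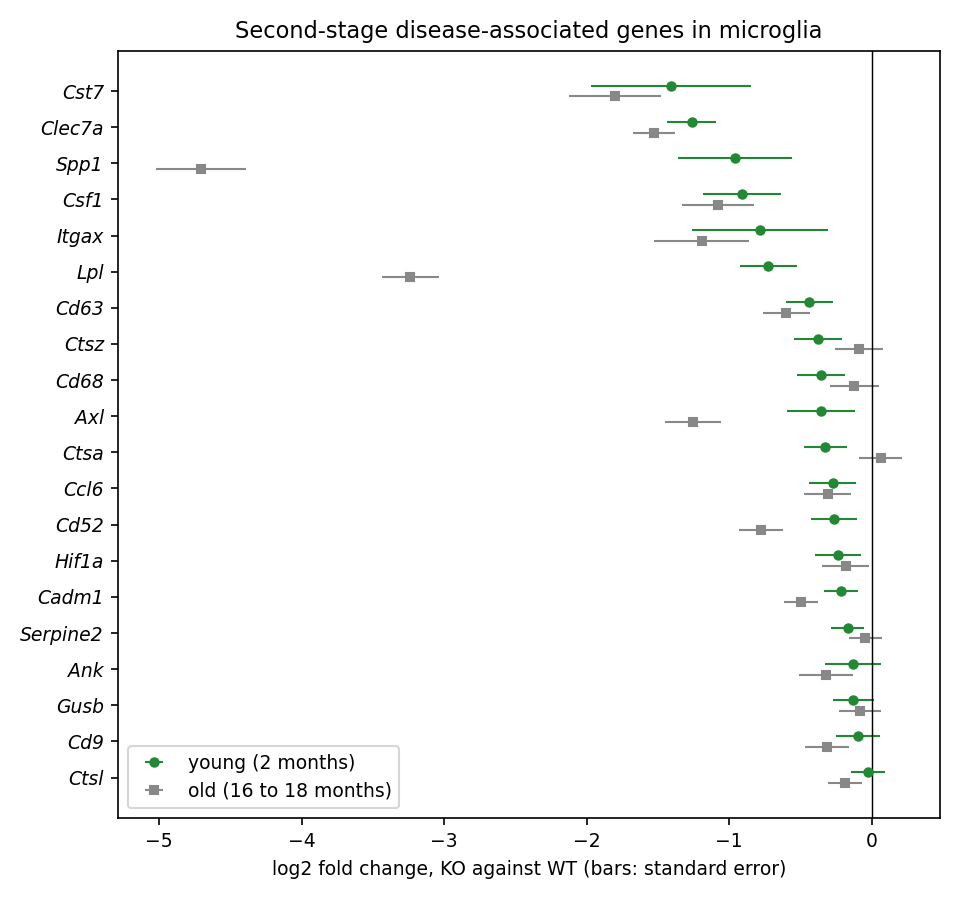
Log2 fold change of KO against WT (horizontal axis, bars for the standard error) of the 20 tested second-stage genes, in young mice (circles) and old mice (squares). All young values in this fit lie left of 0, from -1.41 for Cst7 to -0.02 for Ctsl (which turned positive with no filter), and the old values of Spp1 (-4.71) and Lpl (-3.24) lie far beyond the young ones.

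Homeostatic genes, which mark microglia in the undisturbed brain, gave 0 calls among 25 tested members. The median log2 fold change was -0.00, with 13 negative and 12 positive. The purinergic receptor gene P2ry12 was at 2457, 4103 and 5325 CPM in WT and 3850, 4671 and 5290 CPM in KO (0.26 ± 0.13, interval -0.01 to 0.52), and 3 WT libraries were below every KO library. Tmem119 had -0.15 ± 0.14, the fractalkine receptor gene Cx3cr1 -0.11 ± 0.11 and Csf1r -0.20 ± 0.12. At an unadjusted p under 0.05 there were 1 lower member, the matricellular gene Sparc (-0.36 ± 0.14, unadjusted p = 0.012), and 2 higher ones, among them Cst3, the cystatin C gene (0.33 ± 0.15, unadjusted p = 0.040). Over all genes 3.90% were lower and 2.89% higher at that p.

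Lipid genes were followed because the series concerns lipid metabolism. Of 25 genes listed for cholesterol and lipid handling, 18 were tested and 0 passed, with a median of 0.03. Of the cholesterol exporter genes, Abca1 had -0.02 ± 0.17 and Abcg1 0.45 ± 0.21 (unadjusted p = 0.037), with Abcg1 at 27.3, 70.6 and 113 CPM in WT and 85.3, 105 and 132 CPM in KO. The lowest KO library for Abcg1 was above the WT median. Npc2, which moves cholesterol out of lysosomes, had -0.30 ± 0.13 (unadjusted p = 0.031). Of 20 cholesterol synthesis genes, only 7 had enough counts to test. Their median was 0.30 with 6 of 7 positive, and 0 passed. The same 7 genes had a median of -0.09 in old mice, with 4 negative. Hmgcs1, the synthase that supplies HMG-CoA, was at 20.2, 39.5 and 54.7 CPM in WT and 38.7, 57.5 and 75.1 CPM in KO (0.58 ± 0.18, unadjusted p = 0.0023).

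Lysosomal genes gave 0 calls among 23 tested, of 25 listed. The median was -0.14 and 18 of 23 were negative, against -0.03 and 15 of 23 in old mice. The β-galactosidase gene Glb1 was at 33.02, 39.1 and 58.3 CPM in WT and 19.7, 29.4 and 34.1 CPM in KO (-0.57 ± 0.20, unadjusted p = 0.0079). Grn, the progranulin gene, had -0.47 ± 0.19 (unadjusted p = 0.016), while Psap, the prosaposin gene, had 0.67 ± 0.28 (unadjusted p = 0.023), so members of the list stood on both sides of 0. Among 23 tested phagocytic receptor genes Clec7a was the only call. Tlr2, a pattern recognition receptor gene that was at 91.1, 105 and 155 CPM in WT and 67.7, 78.8 and 110 CPM in KO, had -0.43 ± 0.15 (unadjusted p = 0.0073), and the Fc receptor gene Fcgr3 -0.26 ± 0.10 (unadjusted p = 0.012).

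Complement and antigen presentation genes gave no call. In the complement list of 7 tested genes, the receptor gene C3ar1 was at 427, 508 and 677 CPM in WT and 380, 394 and 464 CPM in KO (-0.31 ± 0.11, unadjusted p = 0.0062), and C1qb, a chain of the initiating complex, had -0.37 ± 0.15 (unadjusted p = 0.022). All 7 tested MHC class II genes were negative (median -0.18), with H2-DMa, a peptide-loading chain, at -0.48 ± 0.20 (unadjusted p = 0.023). Only 1 of these 7 was negative in old mice (median 0.27). The interferon-stimulated list had 16 of 19 negative and a median of -0.20 (6 of 19 and 0.06 in old mice). Its smallest p was that of the nucleic acid sensor gene Zbp1, at 4.76, 14.6 and 18.7 CPM in WT and 1.93, 3.64 and 10.6 CPM in KO (-0.96 ± 0.39, unadjusted p = 0.018).

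Inflammatory genes divided. Of 18 tested NF-κB target and cytokine genes, 7 were lower and 3 higher at an unadjusted p under 0.05 (3.90% and 2.89% over all genes), and 0 passed the adjusted threshold. On the lower side stood the chemokine genes Cxcl16 (-0.73 ± 0.23, unadjusted p = 0.0037) and Ccl4 (-0.70 ± 0.26, unadjusted p = 0.012), with Tnf at -0.63 ± 0.30 and Il1b at -0.64. On the higher side stood the monocyte chemoattractant gene Ccl7, at 0, 17.2 and 40.2 CPM in WT and 16.2, 40.0 and 83.8 CPM in KO (1.15 ± 0.41, unadjusted p = 0.0072), with Ccl12 at 0.64 and Ccl2 at 0.79. Of 22 tested immediate early and stress genes, which dissociation or heat can induce, 11 were positive and 11 negative. Their median was -0.01 and 0 were called. Among them Hspa1a, whose tags can be shared with its near copy Hspa1b, varied widely between libraries. It ranged from 23.7 to 1148 CPM in WT and from 17.8 to 296 CPM in KO (-1.20 ± 0.54, unadjusted p = 0.033).

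Genes of the respiratory chain leaned the other way, with 17 of 25 tested members positive, a median of 0.19 and 5 higher at an unadjusted p under 0.05, none of them called. Over all genes 51.1% were negative and 2.89% were higher at that p. The lean was not kept in old mice, where 20 of the 25 were negative with a median of -0.10. The complex I subunit gene Ndufb3 was at 67.4, 88.3 and 161 CPM in WT and 112, 144 and 208 CPM in KO (0.56 ± 0.19, unadjusted p = 0.0053), and Cox7a2, of complex IV, had 0.45 ± 0.17 (unadjusted p = 0.014). Among 21 ribosomal protein genes, 11 were positive and 10 negative. Ribosomal protein genes have many processed copies in the genome, so their single values are uncertain.

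**Figure D3:**
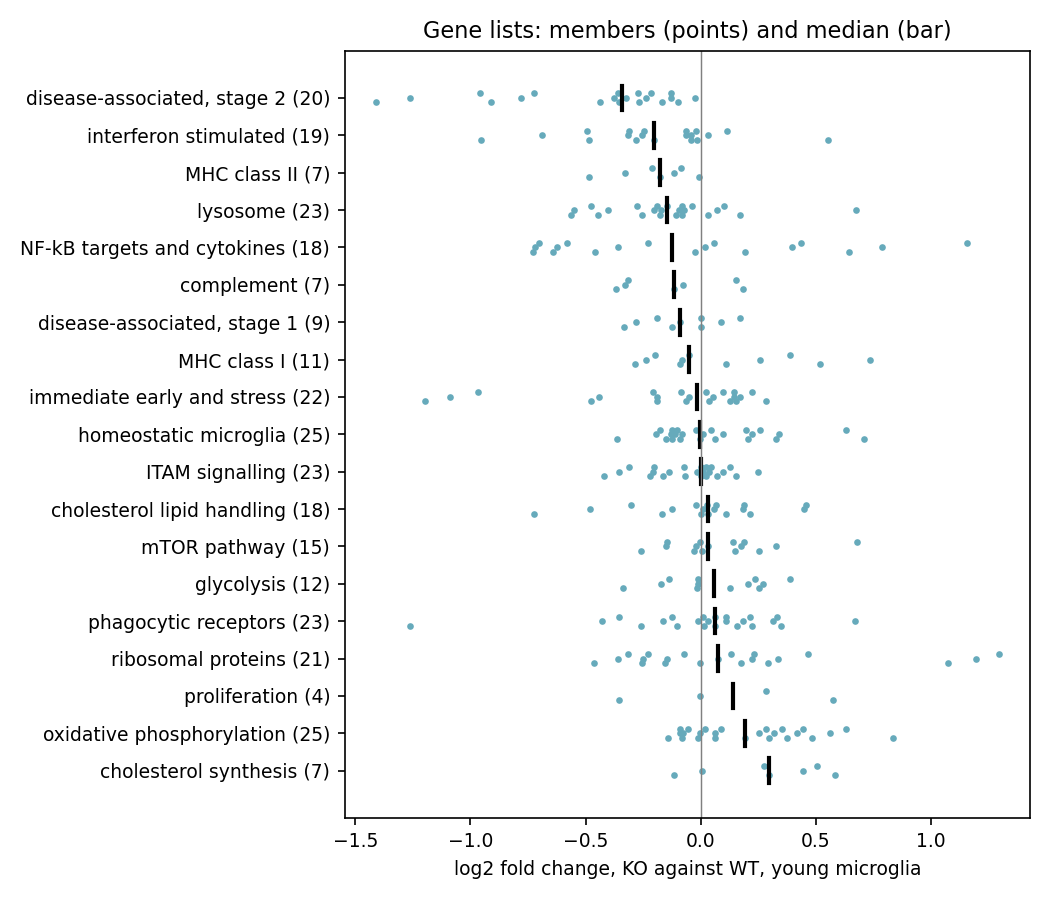
Log2 fold change of KO against WT in young microglia (horizontal axis) for every tested member of 19 gene lists, with 1 point per gene, a bar for the median of each list and the number of tested members in brackets. The second-stage list has the lowest median (-0.34) and cholesterol synthesis the highest (0.30), the latter from 7 genes.

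Markers of border-associated macrophages, the macrophages of meninges and perivascular spaces, had 10 of 10 members tested, 0 called and 8 positive, with a median of 0.13. Pf4, a chemokine gene of these cells, was at 178, 276 and 379 CPM in WT and 211, 496 and 513 CPM in KO (0.55 ± 0.18, unadjusted p = 0.0041). The mannose receptor gene Mrc1 had 0.39 ± 0.19 (unadjusted p = 0.051) and F13a1, coagulation factor XIII A, 0.19 ± 0.15 (unadjusted p = 0.20). All 6 tested neutrophil markers were also positive, with a median of 0.48 and unadjusted p of 0.24 or more. What these cells contribute to the genes with positive values was not tested.

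Beyond the lists, the 10 genes in each direction with the smallest p that missed the adjusted threshold were read out by rule. Lower in value were St8sia6, Rpl14, Lpl, Ino80c, Ptchd1, Hmox1, Csf1, Ing1, Tbl2 and Dusp2. St8sia6, which encodes a sialyltransferase that builds ligands for Siglec receptors, was at 2.92, 20.04 and 31.6 CPM in WT and 1.63, 10.6 and 11.9 CPM in KO (-1.24 ± 0.31, unadjusted p = 3.3e-04, adjusted p = 0.38), with 1 WT library below most KO libraries. It was called without WT animal 25, at -1.36. Ptchd1, a Patched-related membrane protein gene, had -1.05 ± 0.31 (unadjusted p = 0.0015). Hmox1, the haem-degrading oxygenase gene, was at 85.8, 112 and 260 CPM in WT and 54.6, 85.3 and 111 CPM in KO (-0.78 ± 0.23, unadjusted p = 0.0015), and the red-cell sums given above were also higher in WT. It was called with sets of 4 animal numbers as a covariate (adjusted p = 0.025 by edgeR). A part of red-cell RNA or haem in the Hmox1 values was not tested.

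Higher in value by the same rule were Gab1, Dleu2, Gfm1, Oma1, Plac8, Hmgcs1, Coa5, Ctso, Pcsk7 and H3f3b. Gab1, a docking adaptor of receptor kinases, was at 14.6, 21.3 and 28.6 CPM in WT and 24.4, 40.8 and 49.4 CPM in KO (0.85 ± 0.22, unadjusted p = 3.6e-04, adjusted p = 0.38). Dleu2, a long non-coding RNA and host of microRNAs, was at 93.4, 174 and 249 CPM in WT and 120, 303 and 348 CPM in KO (0.72 ± 0.19, adjusted p = 0.43). Its lowest KO value was that of animal 6, without which Dleu2 was called higher (0.85, adjusted p = 0.0219 by edgeR). Gfm1, a mitochondrial elongation factor gene, was at 5.84, 10.2 and 14.6 CPM in WT and 15.8, 19 and 25.1 CPM in KO, with no overlap (0.80 ± 0.24, unadjusted p = 0.0016). Plac8, which is also on the monocyte marker list, was at 2.87, 3.04 and 5.47 CPM in WT and 0, 13.3 and 22.6 CPM in KO (1.90 ± 0.57, unadjusted p = 0.0018). Of the 9 monocyte markers 4 were tested, 3 were positive, the median was 0.41 and 0 were called, with the monocyte receptor gene Ccr2 at 0.01. The part of monocytes in the Plac8 values was not tested.

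Complete separation of the 7 KO from the 7 WT libraries was seen in 7 genes (0.0932% of those tested). Trem2 and Clec7a were below. On the other side (0.0666%), Gfm1, Map4k4, Spire1, Ywhah and the transcript RP24-459O21.3 were above, and none of these 5 was called. For Map4k4, a kinase gene, the ranges were 381 to 455 CPM in WT and 457 to 503 CPM in KO, a log2 fold change of 0.20 ± 0.10. For Ywhah, which encodes a 14-3-3 protein, they were 61.3 to 80.0 CPM in WT and 82.4 to 109 CPM in KO (0.39 ± 0.14, unadjusted p = 0.0073).

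**Figure D4:**
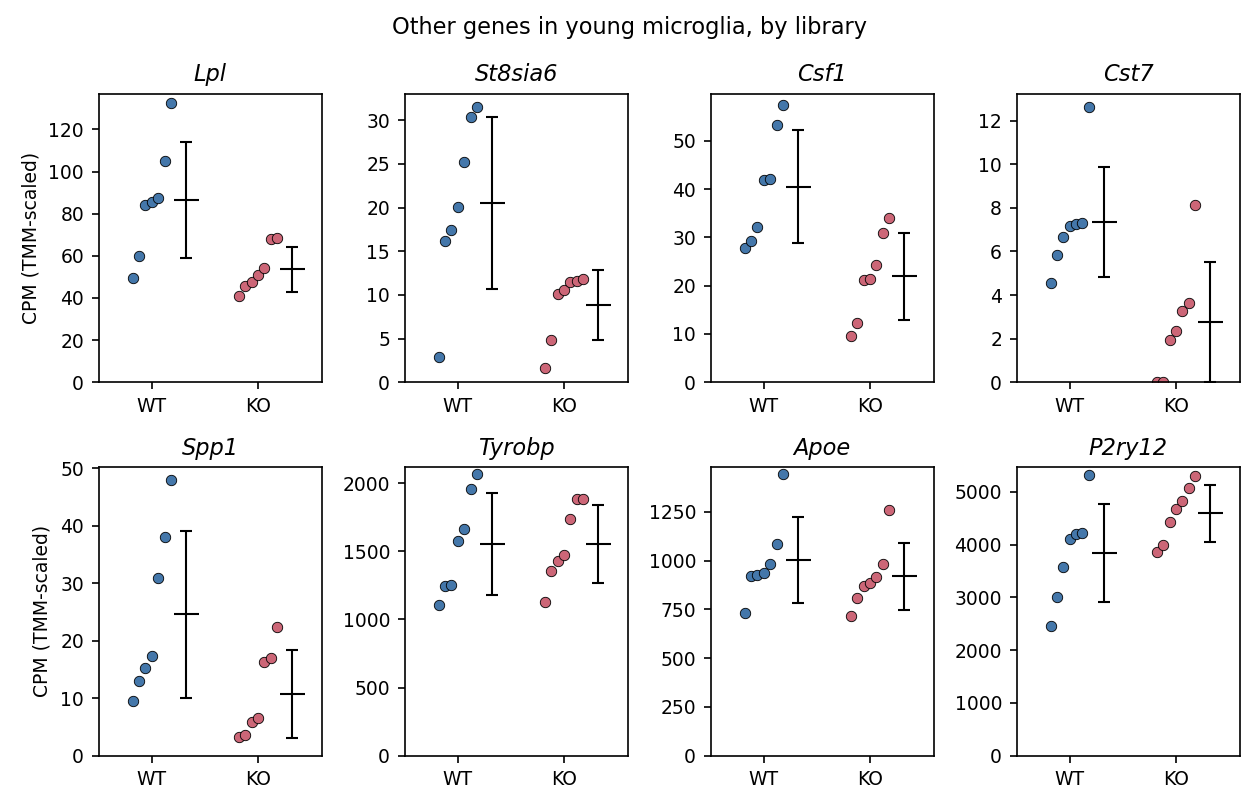
TMM-scaled CPM (vertical axis, linear from 0) of 8 genes that were not called, with 1 point per library, 7 WT and 7 KO, and bars for mean ± SD. Lpl, St8sia6, Csf1, Cst7 and Spp1 lie mostly lower in KO with overlap. Tyrobp and Apoe cover similar ranges in both groups, and for P2ry12 the 3 lowest WT libraries lie below every KO library.

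The depth set a limit on what could be seen. The median standard error of a log2 fold change was 0.21 over all genes, 0.28 in the 2403 genes with the lowest levels (average log2 CPM up to 5) and 0.12 in the 581 with the highest (above 8). The 95% interval of the KO effect lay within a 2-fold change in either direction for 6848 of 7512 genes (91.2%) and within a 1.5-fold change for 3766 (50.1%). For the rest, larger differences were not excluded by these libraries.

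Old mice gave a second set of libraries, from other animals, for the same contrast. Both ages were tested in the same fit, with a shared filter and a shared spread for each gene. The p-values at the ages are therefore not independent of each other. In old mice 10 genes were called (0.133%), 9 of them lower in KO (0.120%) and 1 higher (0.0133%), with 4.55% of genes at an unadjusted p under 0.05. Trem2 had -2.02 ± 0.18 at that age, Clec7a -1.53 ± 0.15 (adjusted p = 3.8e-09 by edgeR) and Cd34 -0.45 ± 0.12 (unadjusted p = 8.3e-04, adjusted p = 0.31). In the test of the difference between ages these 3 genes gave unadjusted p of 0.40, 0.26 and 0.28. Hbb-bs had -0.56 ± 0.72 in old mice, and its age difference was 3.02 with an unadjusted p of 0.0075 and an adjusted p of 0.998. St8sia6 was called there, at -1.75 ± 0.26, and Csf1 was at -1.08 ± 0.25 (adjusted p = 0.074). The Clec7a level was higher in old than in young mice in each genotype, with a mean of 169 CPM in old WT against 56.5 in young WT and 60.4 in old KO against 23.2 in young KO.

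The age difference itself was called for 2 genes (0.0266%), Lpl and Spp1, both members of the second-stage list, while 4.71% of genes had an unadjusted p under 0.05 for it. The KO effect on Lpl was -0.73 ± 0.20 in young and -3.24 ± 0.20 in old mice, a difference of -2.51 (adjusted p = 7.7e-07 by edgeR). For Spp1 it was -0.96 ± 0.40 in young and -4.71 ± 0.32 in old mice, a difference of -3.75 (adjusted p = 2.5e-04). Both calls were made in all 14 fits that left out 1 young library. Axl, Cd52, Cst7, Tns1 and F13a1 were called in old mice and not in young, and their age differences had adjusted p of 0.98 or more, so they were not shown to differ between ages.

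The leading young genes other than Trem2 were then read in the old libraries, with genes ranked by p within each direction. Of the 20 leading lower genes, 14 had the same sign in old mice, 9 had the same sign and an unadjusted p under 0.05, and 4 were called. Of the 20 leading higher genes, 6 had the same sign, 2 an unadjusted p under 0.05 and 0 were called. With the leading 100 the counts were 63, 19 and 5 for the lower and 47, 6 and 0 for the higher genes. The background in old mice was 49.9% of genes negative, and 2.26% lower and 2.29% higher at an unadjusted p under 0.05. Since the ages shared the filter and the spread of each gene, the counts by p are a description and not an independent check.

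Altogether 51 of the 7512 genes tested had an unadjusted p under 0.05 at both ages, 41 in the same direction (32 lower, 9 higher) and 10 in opposite ones. Over all genes, 6.79% had such a p in young mice and 4.55% in old mice, so some genes reach it at both ages by chance. The shared spread also ties the p-values of a gene at the ages to each other. No test was made of this overlap. The genes named next were chosen after their values were seen. Lower at both ages were Slamf8, a receptor gene of the SLAM family, with -1.05 ± 0.35 in young and -1.39 ± 0.31 in old mice, and Lgals3, the galectin-3 gene, with -0.82 ± 0.32 and -0.69 ± 0.25. Csf2ra, a chain of the GM-CSF receptor, had -0.51 ± 0.17 and -0.44 ± 0.17, and Igsf6 -0.48 ± 0.16 and -0.59 ± 0.17. The transcriptional regulator gene Id2 was at 269, 291 and 424 CPM in young WT and 163, 229 and 293 CPM in young KO (-0.43 ± 0.15, and -0.50 ± 0.15 in old mice). Tlr2, Tnf, Nfkbia, Cxcl16, Cd63 and Gpr84 were also in this group. Higher at both ages were Pf4, the scavenger receptor gene Stab1 (0.31 ± 0.13 and 0.36 ± 0.14), the leukotriene C4 synthase gene Ltc4s (0.41 ± 0.17 and 0.46 ± 0.18) and the sialomucin gene Cd164 (0.39 ± 0.17 and 0.41 ± 0.17). Of these, Pf4 is on the border macrophage list, whose sums are given above.

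**Figure D5:**
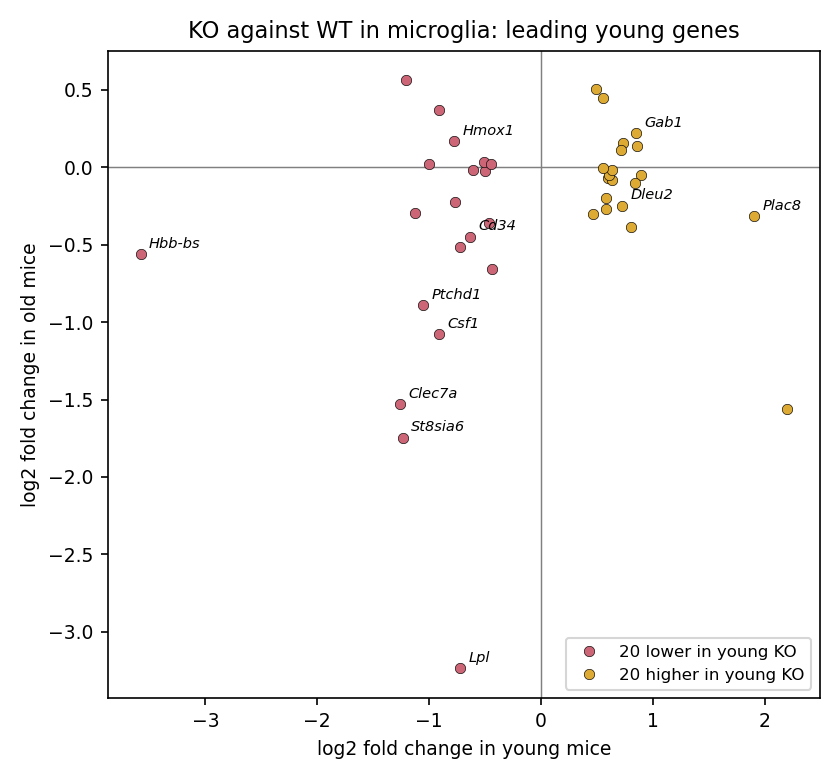
Log2 fold change of KO against WT in young microglia (horizontal axis) against that in old microglia (vertical axis) for the 20 leading lower and 20 leading higher young genes, apart from Trem2. The lower genes fall mostly in the lower left of the plot (14 of 20), and the higher genes lie around 0 on the vertical axis (6 of 20 above it).

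Astrocytes sorted from the same young animals gave 0 genes called of 7524 (0.00%) by edgeR, with 246 (3.27%) at an unadjusted p under 0.05. Trem2, Clec7a, Cd34 and Hbb-bs were below the filter in astrocytes. Hbb-bs was nonetheless lower on average in KO there too, without a test. Its astrocyte mean was 40.5 CPM in young WT (0 to 102 CPM) and 8.29 CPM in young KO (0 to 28.8 CPM). The test of the difference between the KO effects in microglia and in astrocytes called 0 of 9434 genes (0.00%), with 396 (4.20%) at an unadjusted p under 0.05, and 0 also with the animal as a block. The median standard error of that difference was 0.38. Trem2 itself was not called by it (-2.17 ± 0.71, unadjusted p = 0.0033 by edgeR), with astrocyte means of 6.03 CPM in WT and 5.45 CPM in KO. The absence of calls therefore does not show that the KO effects were alike in both cell types. Of the 20 leading lower microglial genes, 10 could be read in astrocytes and 6 of these had the same sign, and of the 20 leading higher genes 16 could be read and 9 had the same sign. Apoe, which astrocytes also make, had -0.07 (unadjusted p = 0.57) there.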

How the data were processed

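Microglia (Cd11b+) and astrocytes (ACSA-2+) of 28 female mice gave 56 libraries, made with a 3′ mRNA kit with molecular identifiers (UMI), per the labels' protocols. The authors deposited raw gene counts, whole numbers without normalization, for 53801 Ensembl identifiers. The submitters' processing notes name the build GRCm38.p6 and the tools STAR, FastQC 0.11.5, MultiQC and R 3.4.3. How reads were counted, against which annotation and with or without UMI collapsing is not stated there, so values are read as counts, not molecules. Names and positions came from GENCODE M21, which matched 53620 identifiers, and promoters from RefSeq (GRCm38.p6). Some genes are not analysed here.

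Within a cell type, each library is a separate animal, numbered in the labels. The 28 microglia libraries were fitted together (1 mean per group, 24 residual degrees of freedom) with edgeR 4.0.16 in R 4.3.3: TMM scaling, filterByExpr and the quasi-likelihood F-test, with Benjamini-Hochberg adjustment over all 7512 genes. Astrocytes (7524 genes) and both cell types together (9434 genes) were fitted likewise. Log2 fold changes are KO minus WT ± SE, and CPM are TMM-scaled. Unadjusted p under 0.05 is given as a description. Pairs of young microglia replicates within a group differed by a chi-square per degree of freedom of 1.82 to 8.39 (42 pairs), more than counting error gives, so none of these pairs looked like copies of 1 library. The fit was tested on simulated data.

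The comparison, the gene lists and the genes followed were chosen with earlier results of these data known. Named genes are 24 followed genes, those called in young or old mice or for the age difference, the 10 with the smallest p in each direction among uncalled genes with an average log2 CPM of at least 3, up to 3 members of each list with the smallest unadjusted p, and neighbours of Trem2 within 1 Mb. A few others are marked as chosen after their values were seen. Lists are given by counts and medians without a set test. Alternatives were RLE and upper quartile scaling, other filters, DESeq2 1.42.0, limma-voom (limma 3.58.1) with quality weights, RIN or sets of 4 consecutive animal numbers as covariates, other sets of libraries, and each young library left out. The labels give no batch.

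Microglia and astrocytes of the same animal carry the same number in the labels. After removal of group means, the correlation between an animal's own sorts over 5701 genes had a median of 0.155 and exceeded 0.1 in 19 of 28 animals. An animal's own other sort was its best match in only 7 of the 28, so the pairing rests on the labels.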

Additional observations from a re-analysis of the deposited data

Results flagged for a closer look

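Libraries that stood apart from the other 6 of their group were looked for in 118 levels of genes and marker sums, and 12 were found. Chance alone flags about 1 in 20 such groups.

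Of these 12, 5 concerned KO animal 6: the highest Trem2 level in the KO group (162.4 CPM, the next being 100.2), the highest Cd34 level (162.4 CPM against 125.9), the lowest Dleu2 level (119.8 CPM against 263.5), the highest neutrophil marker sum (1125 CPM against 723.1) and the highest choroid plexus and ependymal sum (1216 CPM against 179.6). In WT, animal 5 had the highest choroid plexus and ependymal sum, 511.9 CPM against 206.8. KO animal 10 had the highest Hbb-bs level of its group (14.78 CPM against 5.937) and the highest red-cell sum (23 CPM against 6.091). KO animal 18 had the highest level of the histone gene H3f3b (3403 CPM against 2311). WT animal 25 had the highest Ing1 level (245.1 CPM against 156.4) and the highest sum of mast cell and basophil markers (35.02 CPM against 9.108), while Ms4a2 and Fcer1a of that list had no count in any of the 14 libraries. WT animal 21 had the highest Cst7 level (12.62 CPM against 7.287).

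The KO effect differed between old and young microglia for 2 genes by the interaction test in edgeR. The log2 difference, old minus young, was -2.51 for Lpl (adjusted p = 7.7e-07) and -3.75 for Spp1 (adjusted p = 2.5e-04).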

How the results depend on the processing

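Young microglia had 4 calls with RLE and upper quartile scaling, with a filter at 10 CPM in 7 libraries (which kept 9043 genes) and with RIN as a covariate, and 3 with DESeq2 and limma-voom, where Hbb-bs was not called. With no filter on low counts 63 genes were called in young microglia, 25 for the age difference and 1 for the cell type difference, and of those 63, 40 were higher, which moves the split of directions. With sets of 4 animal numbers as a covariate 7 were called, 2 of them higher (Dleu2 and RP24-344N22.3), with Hmox1 added among the lower. Fits to only the 14 young libraries and to all 56 libraries each called 2, Trem2 and Clec7a. Leaving out 1 young library gave 2 to 5 calls, 2 without KO animal 14, 18 or 22 or WT animal 21, and a second-stage median of -0.37 to -0.29. The ITAM list median was -0.072 with limma-voom. Values near 0 changed sign. Tyrobp was 2.7e-04 with RLE scaling, 0.0014 with the 10 CPM filter, 3.8e-04 with DESeq2, 0.0045 with only the young libraries, 0.039 with no filter, 0.0081 with the animal sets and 0.0059 with all 56 libraries, Abca1 0.014 with no filter and 7.5e-04 with limma-voom, Ctsl 0.0082 with no filter, and Syk -0.072 with limma-voom, -0.02 with RIN and -0.036 with the animal sets. Leaving out 1 library gave Tyrobp -0.067 to 0.085, Syk -0.11 to 0.12, Abca1 -0.12 to 0.079, Ctsl -0.086 to 0.045, Cd9 -0.20 to 0.012 and Med20 -0.40 to 0.076. The cause was not tested for any of these. KO and WT microglia share no animal number. With the animal as replicate block, microglia against astrocytes gave 0 calls, as without it. Counts of 346698 to 1034874 per library leave genes of low level imprecise.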
